A study of Homo sapiens with 8 samples.

Results

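Transforming growth factor beta (TGF-β) signals through a short chain of proteins, and the transcripts of 10 genes of that chain were followed here. They are the ligands TGFB1, TGFB2 and TGFB3, the receptors TGFBR1 and TGFBR2, the signal carriers SMAD2, SMAD3 and SMAD4, and the inhibitors SMAD7 and SKIL. The genes were taken by name from a table of read counts for 58735 genes, and each name matched 1 gene of the table. All 10 were among the 14621 genes with enough reads to be tested. None of the 10 differed between the groups beyond the spread between libraries.

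Libraries came from cells labelled A549, an established line described in the labels as human non-small cell lung cancer. The cells carried an empty lentiviral vector (EV group, 4 libraries) or a lentivirus encoding Flag-tagged KRT19 (KRT19 group, 4 libraries). Both groups had been through lentiviral transduction and puromycin selection, which the study's methods describe for stable lines, and no further treatment is stated for these libraries. The comparison asked which transcripts change when keratin 19, an intermediate filament protein of simple epithelia, is overexpressed.

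As background, TGF-β ligands are made as latent precursors and are held inactive in the matrix until proteases or integrins release them. An active ligand dimer brings TGFBR2, a kinase that is always active, together with TGFBR1, which it phosphorylates. TGFBR1 then phosphorylates SMAD2 and SMAD3, which join SMAD4 and enter the nucleus, where the complexes bind DNA at short CAGAC elements. In lung epithelium and in carcinoma cells the pathway is known for growth arrest, for matrix production and for epithelial-mesenchymal transition.

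Promoter sequence from RefSeq (GRCh38.p14) is shown for 3 genes that recur below, the ligands TGFB1 and TGFB2, which lay far apart in level, and SKIL, whose relative spread was widest within the KRT19 group. The TGFB1 window, chr19:41353923-41354168 on the minus strand, lies upstream of the RefSeq start and leaves out the bases that fall in an exon of a neighbouring gene. The TGFB2 window, chr1:218345086-218345335 on the plus strand, lies before the RefSeq start, upstream of the first base of the gene in GENCODE, and overlaps an exon of the antisense RNA TGFB2-AS1. The SKIL window, chr3:170357465-170357677 on the plus strand, ends 1 base before the first annotated base of the gene. Capitals mark the SMAD element CAGAC, the GC box GGGCGG, the TATA box TATAAA and the cyclic AMP element TGACGTCA, each on either strand.
TGFB1: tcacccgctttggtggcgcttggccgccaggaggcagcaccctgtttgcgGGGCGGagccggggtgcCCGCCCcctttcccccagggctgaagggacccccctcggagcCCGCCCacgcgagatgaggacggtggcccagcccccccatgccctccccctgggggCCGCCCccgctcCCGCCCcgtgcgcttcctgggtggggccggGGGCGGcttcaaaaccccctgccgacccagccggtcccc
TGFB2: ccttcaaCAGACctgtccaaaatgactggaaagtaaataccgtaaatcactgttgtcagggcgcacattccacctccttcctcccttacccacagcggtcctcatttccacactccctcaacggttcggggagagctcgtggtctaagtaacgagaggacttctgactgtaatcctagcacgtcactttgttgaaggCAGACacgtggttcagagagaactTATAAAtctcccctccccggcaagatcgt
SKIL: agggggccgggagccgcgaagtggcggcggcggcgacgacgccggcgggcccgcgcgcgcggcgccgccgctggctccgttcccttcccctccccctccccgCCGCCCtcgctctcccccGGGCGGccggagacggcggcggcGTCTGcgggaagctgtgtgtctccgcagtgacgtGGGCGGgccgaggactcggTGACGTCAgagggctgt
The TGFB1 stretch held 6 GC boxes, no TATA box and no CAGAC, with a GC content of 77.2%. The TGFB2 stretch held 2 CAGAC elements, 1 TATA box and no GC box, with a GC content of 50.4%. The SKIL stretch held 3 GC boxes, 1 CAGAC and 1 cyclic AMP element, with a GC content of 79.8%.

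Over all 10 genes, RefSeq gave 26 promoter windows of 250 bases, since several genes have more than 1 start. CAGAC stood in 11 of the 26 windows (42.3%), against 38.0% of 35116 windows of the same length over all genes. The GC box stood in 42.3% of the members' windows and in 42.6% of all windows, and the shares for TATAAA were 11.5% and 10.7%. CCAAT was found in 38.5% of the members' windows and 32.0% of all, and TGACGTCA in 3.85% and 1.65%, the former being SKIL alone. The palindrome GTCTAGAC was in none of the 26 windows and in 0.182% of all. These matches describe the letters only, and the libraries hold no measurement of SMAD binding.

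Sequencing depth was even, with 14073065 to 17054364 counted reads per library. KRT19 itself had 1 to 5 reads in the EV libraries and 4353 to 5147 in the KRT19 libraries, a log2 fold change of 10.75 (SE 0.12, edgeR adjusted p = 5.19e-20). It was the only gene past the adjusted threshold of 0.05, which makes the background 0.00684% of genes tested. At an unadjusted p under 0.05 the background was 5.41%, made up of 2.85% higher and 2.56% lower in KRT19, and 3.44% of genes had groups that did not overlap. No pair of libraries in a group matched within counting noise (chi-square of 2.78 to 13.6 for each degree of freedom), so none was taken for a repeat of another. Whether they came from separate cultures is not in the labels, so p-values measure the spread between these libraries, which may be technical.

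The labelled cell type was checked against markers. The keratins KRT8 and KRT18 were abundant, with a mean of 221 and 315 CPM (read counts scaled to a common library size) in EV, and the tight junction protein CLDN4 was present with 123 to 183 reads. E-cadherin (CDH1) had 0 to 1 reads, EPCAM 0 to 3 and CLDN7 1 to 3 in all 8 libraries, while the mesenchymal filament vimentin (VIM) averaged 2480 CPM in EV. CDKN2B, a TGF-β target that A549 is known to have lost by deletion together with CDKN2A, had a mean of 36.9 CPM in EV and 35.1 CPM in KRT19. The values of CDH1, EPCAM, CLDN7 and CDKN2B go against the labelled line, while those of KRT8, KRT18 and CLDN4 do not. KRT19 itself was near 0 in the EV libraries, at 1 to 5 reads. The study measured its RNA in A549 cells by RT-PCR and reports endogenous KRT19 protein there by co-immunoprecipitation. The identity of the cells was not tested, and they are called cells labelled A549 throughout. The summed level of 6 epithelial markers ranged from 517 to 565 CPM in EV and from 471 to 574 CPM in KRT19. Fibroblast markers summed to 2.18 to 3.98 CPM, endothelial markers to 2.28 to 3.47 CPM and leukocyte markers, with CD3E at 0, to at most 0.543 CPM. The extraction text in the labels speaks of retina, but the retinal genes RCVRN and SAG were at 0 and 8 retinal markers summed to at most 1.86 CPM. Only 1 of the 8 was tested, NRL, with 9 to 24 reads. It shares exon bases with DCAF11 on the opposite strand, a gene with 478 to 603 reads.

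Among the ligands, TGFB1, the isoform most epithelial and immune cells secrete, was by far the most abundant. TGFB1 (ENSG00000105329, chr19:41301587-41353911, minus strand, GRCh38) stood at 295, 292, 291 and 305 CPM in EV replicates 1 to 4 and at 311, 290, 246 and 297 CPM in KRT19 replicates 1 to 4. The EV libraries lay within a narrow band, while the KRT19 libraries ran from the lowest to the highest value of all 8, so the groups overlapped. In bulk RNA, fewer expressing cells and less RNA per cell cannot be told apart. The change was -3.40% with a 95% interval of -11.6 to 5.57% (log2 fold change -0.05, SE 0.061, edgeR adjusted p = 0.949). Without KRT19 replicate 3, the low library, the log2 fold change was 0.016. TGFB1 shares 6.64% of its exon bases with HNRNPUL1 on the opposite strand, a gene with 16625 to 19633 reads, and how the counting treated strand was not given in the sources used here. The genes that share exon bases with TGFB2 (26.6%) and SMAD4 (7.37%) lie on the same strand and had 0 reads in every library. How reads in those shared bases were assigned was not tested, so these counts of 0 do not show that TGFB2 and SMAD4 lost no reads.

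TGFB2, the isoform that needs the co-receptor betaglycan for strong receptor binding, was present at a low level. TGFB2 (ENSG00000092969, chr1:218346235-218444619, plus strand) had 18.1, 14.5, 15.1 and 16.9 CPM in EV and 13.9, 16.2, 18.1 and 15.6 CPM in KRT19. Both groups covered nearly the same range, and the change was -1.0% with an interval of -14.2 to 14.2% (adjusted p = 0.989).

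TGFB3, a ligand best known from palate development, was the lowest of the 10 transcripts, with 46 to 71 reads per library. TGFB3 (ENSG00000119699, chr14:75958099-75982991, minus strand) had 3.53, 2.89, 4.32 and 3.77 CPM in EV and 3.38, 3.27, 3.75 and 3.24 CPM in KRT19. The KRT19 values all fell inside the EV range. The interval was wide, from -25.2 to 18.7%, and a change within it was not resolved by these libraries (log2 fold change -0.09, SE 0.16, adjusted p = 0.962).

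**Figure D1:**
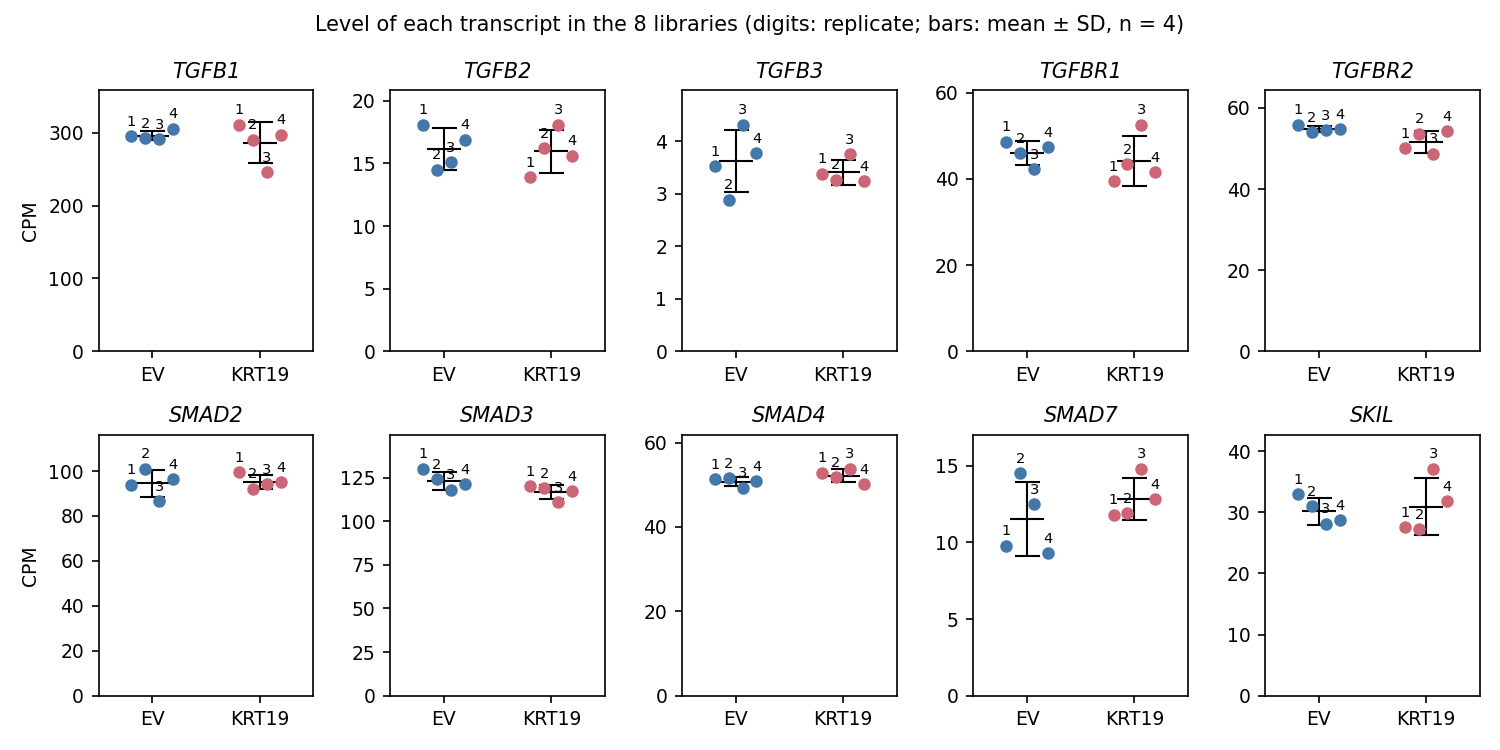
Level of each of the 10 transcripts in CPM (vertical axes from 0), with EV libraries in blue and KRT19 libraries in red. Digits give the replicate and bars the mean ± SD of 4 libraries. The groups overlap in every panel, and KRT19 replicate 3 is the lowest TGFB1 library at 246 CPM and the highest SKIL library at 37.1 CPM.

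The 2 receptors were expressed at similar CPM. TGFBR1, the type I receptor that phosphorylates SMAD2 and SMAD3, lies at chr9:99104038-99154192 on the plus strand (ENSG00000106799). It had 48.6, 46, 42.2 and 47.4 CPM in EV and 39.4, 43.4, 52.6 and 41.5 CPM in KRT19. KRT19 replicate 3 gave the highest value of all 8 libraries, and KRT19 replicates 1 and 4 gave the lowest 2. The change was -3.84% with an interval of -14.6 to 8.22% (log2 fold change -0.06, SE 0.081, adjusted p = 0.955). Leaving out KRT19 replicate 3 gave a log2 fold change of -0.15, and leaving out KRT19 replicate 1 gave -0.0031. Over 15 other settings, the unadjusted p was under 0.05 in 2, limma-voom with quality weights and without KRT19 replicate 3, and the adjusted p was never below 0.532.

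TGFBR2, the type II receptor that binds ligand first, lies at chr3:30606502-30694142 on the plus strand (ENSG00000163513). It had 55.9, 54.0, 54.5 and 54.8 CPM in EV and 50.1, 53.6, 48.7 and 54.3 CPM in KRT19. Here 3 KRT19 libraries lay below every EV library, and KRT19 replicate 4 lay among them. The change was -5.73% with an interval of -13.2 to 2.34% (log2 fold change -0.09, SE 0.056, unadjusted p = 0.148, adjusted p = 0.906). A two-sided exact permutation test over the 8 libraries gave p = 0.0571, where 4 against 4 cannot give less than 0.0286. Its log2 fold change was below 0 in 15 of 15 other settings, from -0.11 to -0.051, and its adjusted p was at least 0.761 in each.

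SMAD2 and SMAD3 are the carriers that the type I receptor phosphorylates. SMAD2 (ENSG00000175387, chr18:47808957-47931146, minus strand) had 94.0, 101, 86.6 and 96.4 CPM in EV and 99.6, 92.2, 94.2 and 95 CPM in KRT19. All KRT19 values were inside the EV range, and the change was 0.764% with an interval of -7.26 to 9.48% (adjusted p = 0.983).

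SMAD3, which unlike the main form of SMAD2 binds DNA directly, was the more abundant. SMAD3 (ENSG00000166949, chr15:67063763-67195195, plus strand) had 130, 124, 118 and 121 CPM in EV and 120, 119, 111 and 117 CPM in KRT19. The KRT19 libraries lay in the lower part of the EV range or below it, with KRT19 replicate 3 the lowest. The change was -5.20% with an interval of -12.1 to 2.22% (log2 fold change -0.08, SE 0.052, adjusted p = 0.906), and the exact permutation p was 0.0857. The direction was the same in 15 of 15 other settings.

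SMAD4, the partner shared with the bone morphogenetic protein (BMP) branch, was the steadiest of the 10 between libraries. SMAD4 (ENSG00000141646, chr18:51028394-51085045, plus strand) had 51.3, 51.5, 49.3 and 50.9 CPM in EV and 52.9, 51.8, 53.8 and 50.2 CPM in KRT19. In this gene 3 KRT19 libraries were above every EV library and KRT19 replicate 4 was below all but 1 of them. The change was 2.87% with an interval of -4.89 to 11.3% (log2 fold change 0.04, SE 0.054, adjusted p = 0.952).

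The inhibitors are themselves induced by TGF-β in many cells. SMAD7, which occupies the type I receptor and brings ubiquitin ligases to it, lies at chr18:48919853-48952052 on the minus strand (ENSG00000101665). It had 9.78, 14.5, 12.5 and 9.30 CPM in EV and 11.8, 11.9, 14.8 and 12.8 CPM in KRT19. The EV libraries were split, with replicates 1 and 4 below every KRT19 library and replicate 2 above all but KRT19 replicate 3. SMAD7 had the largest fitted change of the 10 genes, 11.4%, with an interval of -7.80 to 34.6% (log2 fold change 0.16, SE 0.13, unadjusted p = 0.245, adjusted p = 0.920). Without EV replicate 2 the log2 fold change was 0.28 with an unadjusted p of 0.0395, and without EV replicate 4 it was 0.064. Its adjusted p was at least 0.639 in all 15 other settings.

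SKIL encodes SnoN, a corepressor that holds SMAD complexes inactive on DNA. SKIL (ENSG00000136603, chr3:170357678-170396835, plus strand) had 32.9, 31.0, 28.1 and 28.7 CPM in EV and 27.5, 27.2, 37.1 and 31.8 CPM in KRT19. KRT19 replicate 3 was the highest of the 8 libraries, and KRT19 replicates 1 and 2 were the lowest. The change was 2.73% with an interval of -10.1 to 17.4% (log2 fold change 0.04, SE 0.091, adjusted p = 0.969), and without KRT19 replicate 3 the log2 fold change was -0.063.

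**Figure D2:**
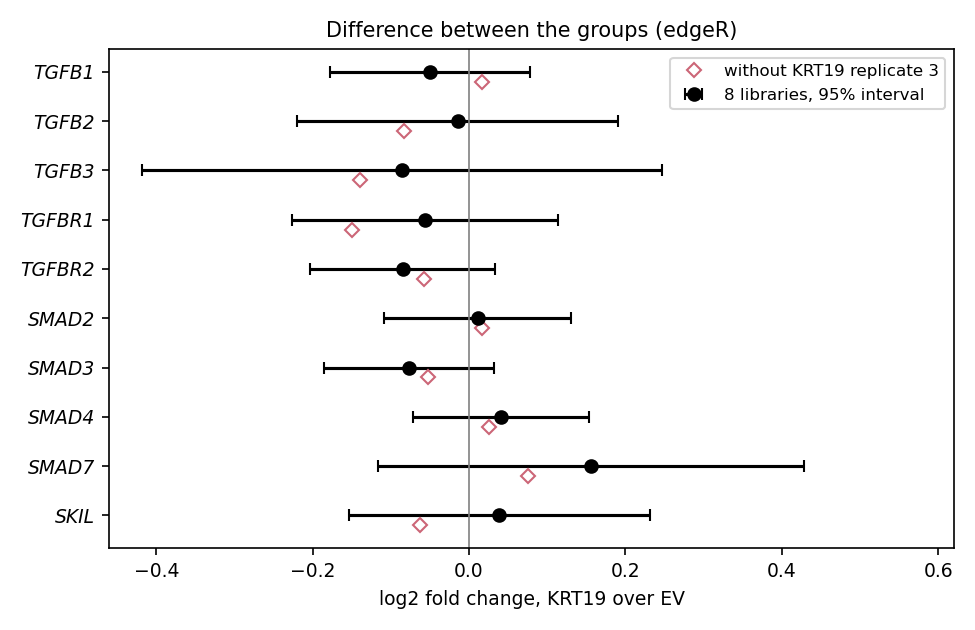
Log2 fold change of KRT19 over EV for each gene (horizontal axis) from the edgeR model, with 95% intervals from 8 libraries in black and the value without KRT19 replicate 3 as open diamonds. Every interval includes 0. TGFB1 moves from -0.05 to 0.016 and SKIL from 0.04 to -0.063 when that library is left out.

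Set together, 4 of the 10 genes had a fitted change above 0 and 6 below, with a median log2 fold change of -0.03, against 0.0051 over all genes tested, of which 47.8% were below 0. None of the 10 passed the unadjusted threshold and none had groups without overlap, beside backgrounds of 5.41% and 3.44%. With 10 genes, counts of 0 are near those backgrounds.

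A single library stood at the end of its group for most of these genes. KRT19 replicate 3 was the highest of its group for TGFB2, TGFB3, TGFBR1, SMAD4, SMAD7 and SKIL and the lowest for TGFB1, TGFBR2 and SMAD3. It was thus at an end of its group for 9 of 10 genes. The same library was at an end for 66.0% of all genes tested, the most of any library. Its root mean square deviation from the mean of the other libraries of its group was 0.285 on the log2 scale. The same measure was 0.234 to 0.265 in the other libraries. Relative to the EV mean its log2 CPM was -0.27 for TGFB1 and 0.30 for SKIL. EV replicate 3 was the lowest of its group for 6 genes and the highest for 1, and over all genes it was at an end for 59.3%. The part of these library differences in the members' changes was not tested beyond leaving each library out.

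**Figure D3:**
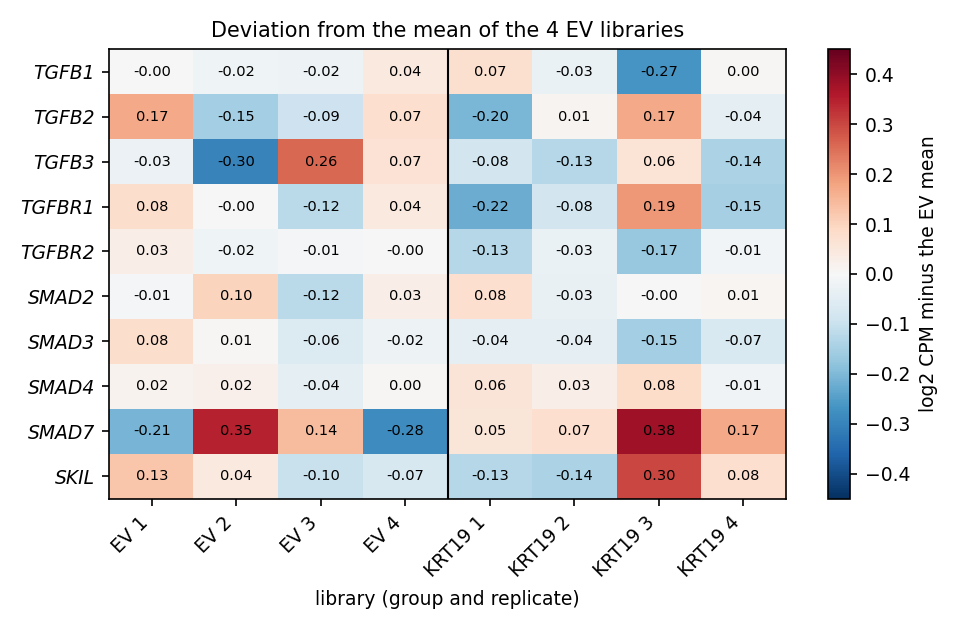
Log2 CPM of each gene in each library minus the mean of the 4 EV libraries (colour, with the value printed in each cell). The strongest cells stand in SMAD7, in TGFB3 of EV replicates 2 and 3, and in KRT19 replicate 3, where SKIL is at 0.30 and TGFB1 at -0.27.

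Levels were compared between genes per kilobase of gene length. By the deposited length, the order of mean level in EV was TGFB1 (91.4 CPM per kilobase), SMAD3 (13.5), TGFBR2 (11.6), TGFBR1 (6.73), SKIL (3.88), SMAD4 (3.87), TGFB2 (3.14), SMAD2 (2.60), SMAD7 (2.29) and TGFB3 (0.738), all in the same unit. TGFB1 was thus above the other ligands in every library, at 76.0 to 96.1 CPM per kilobase against 2.71 to 3.51 for TGFB2 and 0.589 to 0.879 for TGFB3. The ranges of neighbours overlapped for SKIL and SMAD4, for TGFB2 and SMAD2, and for SMAD2 and SMAD7, so their order was not resolved. All other neighbours in the order were separate in 8 of 8 libraries.

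The place of SMAD2 depended on the length used. Its deposited length of 36366 bases covers every annotated exon, whereas its shortest principal transcript in GENCODE has 12075 bases. With principal transcripts, a choice made after the data were seen, SMAD2 moved up the order to 7.83 CPM per kilobase in EV, next to TGFBR1 at 7.07, and SKIL to 9.87. TGFB1 and SMAD3 remained at the top with 107 and 19.7 CPM per kilobase, and TGFB3 at the bottom with 1.44.

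**Figure D4:**
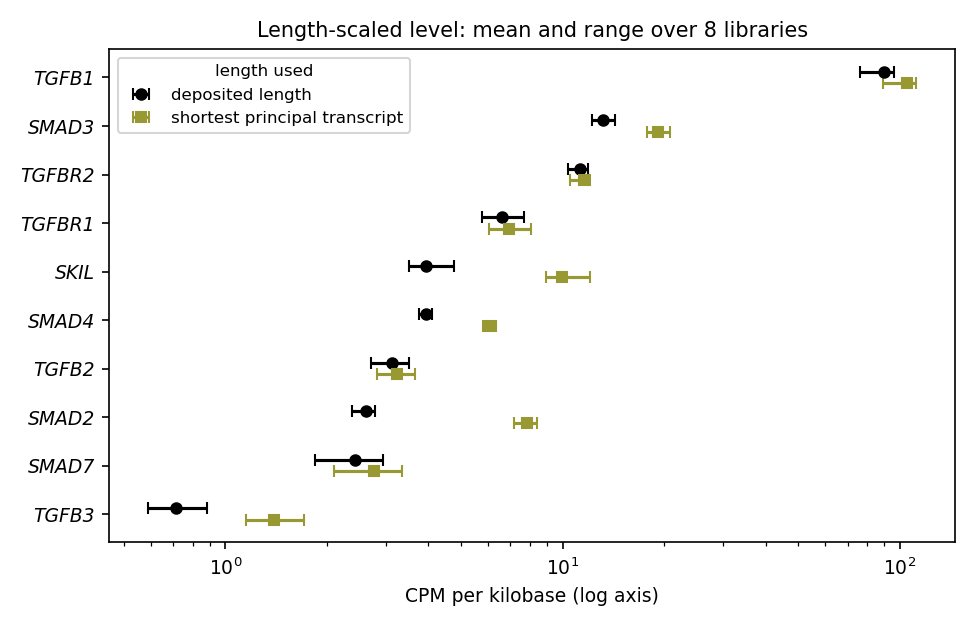
Level per kilobase of length on a log axis, as the mean of both group means with the range over 8 libraries, by the deposited length (black) and by the shortest principal transcript (green). TGFB1 is at the top and TGFB3 at the bottom with either length, while SMAD2 and SKIL move by the most.

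Ratios within a library do not depend on library scaling, and 4 were compared between the groups. By the deposited length, the log2 ratio of TGFB1 to TGFB2 was 4.87 ± 0.13 in EV and 4.83 ± 0.30 in KRT19 (SD, n = 4, exact permutation p = 0.83). For TGFBR2 to TGFBR1 it was 0.79 ± 0.077 in EV and 0.77 ± 0.23 in KRT19 (n = 4, exact permutation p = 0.943), with single KRT19 values of 0.89, 0.84, 0.43 and 0.93. For SMAD3 to SMAD2 it was 2.38 ± 0.087 and 2.29 ± 0.059 (n = 4, exact permutation p = 0.171). The inhibitor against carrier ratio, SMAD7 to SMAD2, was -0.21 ± 0.30 and -0.05 ± 0.17 (n = 4, exact permutation p = 0.371). The difference of 0.16 in this last ratio went down to 0.055 without EV replicate 4 and up to 0.25 without EV replicate 3. All 4 overlapped between the groups, and the lowest p adjusted over the 4 was 0.684. The level of a ratio rests on the lengths used, though its difference between the groups does not. By the shortest principal transcripts, SMAD3 to SMAD2 was 1.34 in EV and 1.25 in KRT19, and SMAD7 to SMAD2 was -1.61 and -1.45.

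The rest of the pathway was described with 5 lists of 136 genes in all, of which 107 were tested. None of the 107 passed the adjusted threshold. Groups did not overlap for 2 higher and 8 lower genes of the 107, beside a background of 3.44% of all genes tested. At an unadjusted p under 0.05, 2 were higher and 6 lower in KRT19, which is 7.48% beside a background of 5.41%, and the median log2 fold change was -0.02.

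Of the genes for latency and activation of the ligand, 15 of 19 were tested and none reached an unadjusted p under 0.05. The latent binding proteins LTBP1, LTBP2, LTBP3 and LTBP4, which anchor the precursor in the matrix, had log2 fold changes of -0.12, -0.08, -0.10 and -0.03. ITGB1, the integrin beta chain with a mean of 932 CPM in EV and 889 CPM in KRT19, had groups that did not overlap, with a log2 fold change of -0.07 (SE 0.042, adjusted p = 0.906). PLAU, the urokinase that generates plasmin, had 263 and 257 CPM. The list median was -0.061, and -0.014 without KRT19 replicate 3.

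All 17 receptor partners were tested. USP15, a deubiquitinase that stabilises TGFBR1, had 49.1, 51.6, 47.4 and 53.2 CPM in EV and 53.7, 54.3, 59.9 and 54.7 CPM in KRT19. Every KRT19 library was above every EV library, a change of 10.6% (log2 fold change 0.14, SE 0.060, unadjusted p = 0.0274, adjusted p = 0.906). It was the only 1 of the 17 at that threshold, 5.88% beside a background of 5.41%. That p was 0.05 or more in 5 of 15 other settings, among them limma-voom and without EV replicate 1, EV replicate 3 or KRT19 replicate 3, and at most 0.0854. The most abundant partners per length were STRAP, an adaptor that binds SMAD7 and the receptors, at 510 and 502 CPM, and FKBP1A, which keeps TGFBR1 inactive without ligand, at 301 and 286 CPM. The feedback inhibitor PMEPA1 had 29 and 29.7 CPM.

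Of the SMAD cofactors, 22 of 23 were tested, and none reached an unadjusted p under 0.05 or had groups without overlap. SKI, the paralog of SKIL, had 90.0 CPM in EV and 88.7 CPM in KRT19. HDAC1, a histone deacetylase of corepressor complexes, had 264 and 260 CPM. JUN, an AP-1 subunit that binds beside SMADs at many sites, had 106 and 98.2 CPM (unadjusted p = 0.0529, adjusted p = 0.906).

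Of the activin and BMP branch, 20 of 33 genes were tested and none was past the unadjusted threshold. The ligands of that branch were scarce, with 5 of 12 tested, while 8 of 10 receptors were. ACVR1, a type I receptor, had 50.0 and 50.8 CPM. FSTL3, an activin-binding antagonist, had 35.8 and 33.6 CPM. GDF11, a ligand that signals through SMAD2 and SMAD3, had groups that did not overlap, at 50.3 to 54.0 CPM in EV and 46.5 to 49.1 CPM in KRT19 (log2 fold change -0.11, SE 0.055, adjusted p = 0.906). It was named after its values were seen, as were SKI, the 4 latent binding proteins and CDKN2B above and SPARC, PDGFB and PTHLH below.

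Transcriptional targets of TGF-β gave the largest count. Of 49 listed, 37 were tested, with 1 higher and 6 lower in KRT19 at an unadjusted p under 0.05, which is 18.9% beside a background of 5.41%. None was past the adjusted threshold, and the list median was -0.043. KRT19 replicate 3 was the lowest of its group for all 6 of the lower genes, and for 18 of the 37 tested, against 32.9% of all genes. Without it, 5 of these 7 genes kept an unadjusted p under 0.05 (ANGPTL4, BHLHE40, JUNB, VIM and CTGF), PDGFB and SPARC did not, and CYR61, higher in KRT19, was among 2 that came under it (edgeR unadjusted p = 0.0319). The part of this library in the list's count was not tested further. ANGPTL4, an inhibitor of lipoprotein lipase, had 213, 198, 212 and 212 CPM in EV and 196, 185, 153 and 167 CPM in KRT19. The groups did not overlap, with a change of -16.0% and an interval of -23.7 to -7.52% (log2 fold change -0.25, SE 0.066, unadjusted p = 0.00136, adjusted p = 0.712). Its adjusted p was under 0.05 in 1 of 15 other settings, the looser filter, at 0.00532.

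CTGF, the matricellular protein now named CCN2, went the other way. It had 49.0, 47.4, 49.0 and 48.4 CPM in EV and 56.9, 52.5, 56.5 and 54.9 CPM in KRT19, without overlap. The change was 13.9% with an interval of 5.28 to 23.3% (log2 fold change 0.19, SE 0.054, unadjusted p = 0.00284, adjusted p = 0.868). CYR61, its relative now named CCN1, had 353 and 373 CPM (unadjusted p = 0.0882), with groups that overlapped.

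BHLHE40, a transcriptional repressor of the clock and stress response, averaged 128 CPM in EV and 114 CPM in KRT19 (log2 fold change -0.17, unadjusted p = 0.0109, adjusted p = 0.906). JUNB, another AP-1 subunit, averaged 58.4 and 52.3 CPM (log2 fold change -0.16, unadjusted p = 0.0127, adjusted p = 0.906). VIM averaged 2480 and 2330 CPM (log2 fold change -0.09, unadjusted p = 0.0348, adjusted p = 0.906), and its unadjusted p was 0.05 or more in 5 of 15 other settings, among them the looser filter and without EV replicate 1, EV replicate 4 or KRT19 replicate 4, with a log2 fold change of -0.095 to -0.081 in those 5. For JUNB this was so in 1 setting, without EV replicate 4 (edgeR unadjusted p = 0.0511), and for BHLHE40 in none of 15. The groups of these 3 genes did not overlap. The remaining 2 below the unadjusted threshold were PDGFB, a growth factor at a mean of 38.7 and 34.2 CPM whose groups overlapped (unadjusted p = 0.0205), and the matrix protein SPARC at 2.73 and 2.00 CPM, whose groups did not (unadjusted p = 0.0404). SPARC was past that threshold in 7 of 14 other settings, and without KRT19 replicate 3 its log2 fold change went from -0.45 to -0.29 (unadjusted p = 0.165). PDGFB was at 0.05 or more in 3 of 15, among them without EV replicate 3 or KRT19 replicate 3. JUNB shares 14.2% of its exon bases with HOOK2 on the opposite strand, at 242 to 317 reads, and VIM shares 24.4% with antisense genes, of which VIM-AS1 had 48 to 92 reads. PTHLH, a secreted hormone, had groups without overlap and an unadjusted p of 0.0830. Of the 37 targets tested, 1 was higher and 6 were lower without overlap, beside a background of 3.44% of all genes tested. ANGPTL4 and BHLHE40 are also known as targets of hypoxia, and CTGF and CYR61 as targets of YAP, so the list does not separate TGF-β from other inputs.

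TGFBI and ID1, chosen by name whatever their values, did not pass the test. TGFBI, an extracellular matrix protein, had 9.27 and 8.71 CPM (adjusted p = 0.952), and ID1, an inhibitor of basic helix-loop-helix factors, had 32.1 and 31.2 CPM (adjusted p = 0.959).

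**Figure D5:**
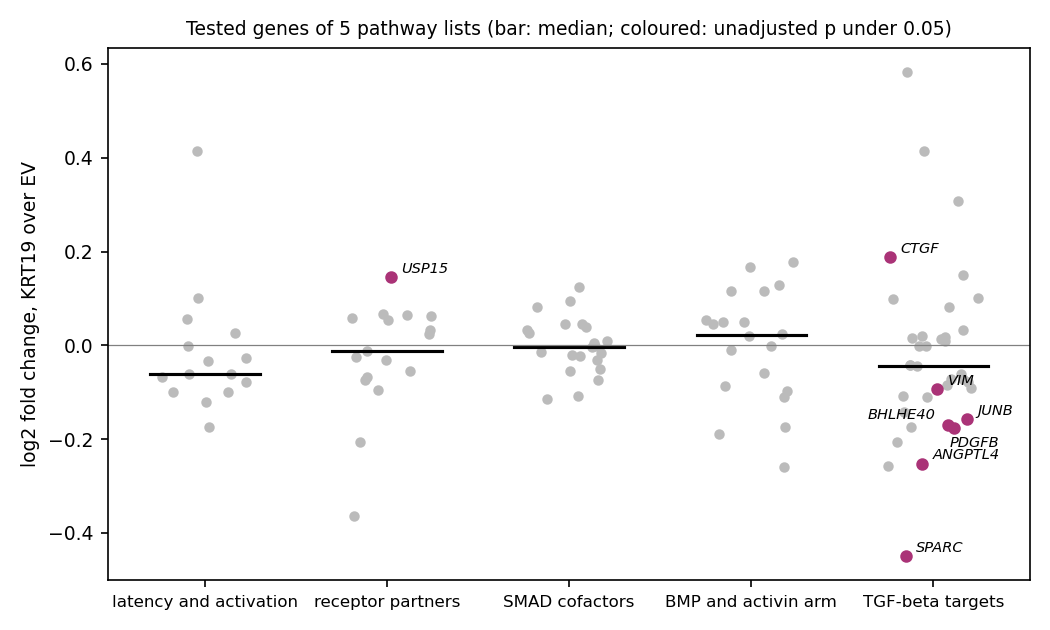
Log2 fold change of KRT19 over EV (vertical axis) for each tested gene of the 5 pathway lists, with the list median as a bar and genes at an unadjusted p under 0.05 coloured and named. The named genes are USP15 and 7 of the 37 tested targets, where only CTGF is above 0. The medians lie between -0.061 and 0.022.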

How the data were processed

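RNA-seq was carried out on 8 libraries of cells labelled A549, 4 EV and 4 KRT19. Sample titles gave the group and the replicate number. The authors deposited raw read counts in 1 table, not normalized, with a length for each gene. The submitters' processing notes name Bowtie 0.12.2, featureCounts 1.5.0-p3, DESeq2 and build hg38, without their roles, and the strand setting was not given in the sources used here. The study's methods state that a company cleaned the reads.

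All 58735 genes were found in the GENCODE annotation. The model was fitted by edgeR 4.0.16 under R 4.3.3 (filterByExpr, TMM, glmQLFit and glmQLFTest on the group), and the filter retained 99.84% or more of every library's counts. P-values were two-sided and adjusted by the Benjamini-Hochberg method over 14621 genes, with a threshold of 0.05. SE was derived from the fold change and F. CPM used TMM-scaled library sizes, and log2 CPM a prior count of 2. The biological coefficient of variation was 6.86%. Ratios and single levels were compared by exact permutation over libraries. Promoter windows came from RefSeq.

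The 10 genes and the pathway lists were chosen with earlier results of these data known. The named pathway genes were CTGF, TGFBI, PMEPA1 and ID1, those at an unadjusted p under 0.05 without overlap (at most 4 per list), and the 2 most abundant per length in each list. Others were named after their values were seen, and 1 gene that the rule names is not reported here. The alternatives were DESeq2 1.42.0 size factors and its Wald test, upper-quartile scaling, limma 3.58.1 voom with quality weights, a looser filter (total count of 1 or more), a stricter one (5 CPM in 4 libraries), a replicate block, leaving out each library and, for the ratios, a pseudocount of 5 counts. The model scripts were tested on simulated data.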

Additional observations from a re-analysis of the deposited data

Results flagged for a closer look

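The level of each member and of KRT19, and the 4 ratios, were examined in groups of 4 libraries for a library far from the other 3. Of 30 groups examined, 2 held such a library, where chance gives about 1.5, and both were KRT19 replicate 3. The log2 CPM of KRT19 was 8.17 in that library, against 8.27 to 8.28 in the other 3 KRT19 libraries. The log2 ratio of TGFBR2 to TGFBR1 was 0.43 there, against 0.84 to 0.93 in the other 3, and it rests on the highest TGFBR1 level of the group, 52.6 CPM, and the lowest TGFBR2 level, 48.7 CPM.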

How the results depend on the processing

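KRT19 remained past the adjusted threshold in all 15 alternatives, with a log2 fold change of 10.52 to 11.17, and no member passed it in any. Of 365 values set beside those reported, 14 gene or ratio values changed sign and 25 counts or list medians moved by over 1.5 times or by more than the spread of the EV libraries, and the cause was not tested. The other 326 stayed within those limits, which allow a gene's fold change to vary in size and 8 list medians to change sign. The genes past the adjusted threshold numbered 1, but 5 by the Wald test of DESeq2, 8 under limma-voom, 71 after the looser filter and 1 to 5 with each library left out (3 without EV replicate 1 and 5 without KRT19 replicate 3). The 791 genes at an unadjusted p under 0.05 became 1337 under limma-voom, 1559 after the looser filter and 620 to 1228 with each library left out, the most without KRT19 replicate 1. Members at that threshold numbered 0, and 1 with limma-voom, without EV replicate 2 and without KRT19 replicate 3 (range 0 to 1). The pathway lists held 8 such genes, and 6 to 13 with each library left out, the most without KRT19 replicate 1. List counts under alternatives were added after the data were seen. The list median kept its sign in 15 of 15 alternatives for ligand latency (-0.073 to -0.014) and for the targets (-0.065 to -0.027), but in 8 for receptor partners and in 10 each for SMAD cofactors and for the activin and BMP branch.

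Leaving out single libraries gave ranges that crossed 0 for TGFB1 (-0.094 to 0.016), TGFB2 (-0.083 to 0.047), TGFB3 (-0.18 to 0.0097), SMAD2 (-0.029 to 0.044) and SKIL (-0.063 to 0.093), and for the log2 ratios of TGFB1 to TGFB2 (-0.14 to 0.094) and TGFBR2 to TGFBR1 (-0.072 to 0.094). SMAD2 was also -0.00087 with upper-quartile scaling and -0.0063 with limma-voom. No member was past the adjusted threshold in these settings.

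Replicate numbers are shared between the groups, but same-numbered libraries did not deviate together (correlations of -0.111, -0.0239, -0.159 and 0.0567). With a replicate block, 451 genes had an unadjusted p under 0.05, 5 of them in the pathway lists, and 1 gene passed the adjusted threshold. USP15, VIM and PDGFB had an unadjusted p of 0.0705, 0.114 and 0.0531 there, with log2 fold changes of 0.14, -0.093 and -0.18, the same as without the block. TGFB3 had the fewest reads of the members, 46 to 71 per library, and the part of depth in its wide interval was not tested.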
